A study of Mus musculus with 10 samples.

Results

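The 10 genes described here are the Tet enzymes Tet1, Tet2 and Tet3 and 7 other genes reported as targets of miR-22 in muscle, liver or blood, namely Sirt1, Hdac4, Hdac6, Sp1, Max, Ncoa1 and Rgs2. They were listed by name, out of 21098 genes in the count table. Gastrocnemius (GAS) RNA was sequenced from diet-induced obese (DIO) mice in 5 libraries per group. All mice were WT male C57BL/6J animals given a high fat diet (D12492i) from 9 weeks of age, for 9 weeks before treatment. The first group received an antisense oligonucleotide against miR-22 (anti-miR-22 ASO, labelled RES-010) under the skin at 10 mg/kg, 1 injection per week for 14 weeks, and the control group (CTRL) received matched volumes of saline, so an unrelated oligonucleotide is not among the groups. The design text gives the age at sampling as 30 weeks, which is less than the sum of these periods, and the difference could not be settled. Each library was a separate sample of whole muscle, in which fewer cells of a type and less RNA per cell cannot be told apart.

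A microRNA guides the Argonaute protein to messenger RNAs that pair with its seed, the bases near its 5′ end, usually in the 3′ untranslated region (3′UTR), and the bound message is degraded or translated less. miR-22 is abundant in striated muscle and in liver. Tet enzymes oxidize methylated cytosine in DNA, Sirt1 and the Hdac proteins remove acetyl groups from histones and other proteins, Sp1 and Max are DNA-binding transcription factors, Ncoa1 is a coactivator of nuclear receptors, and Rgs2 shortens signals from receptors coupled to Gq proteins.

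The sequence of miR-22-3p, the arm whose reported targets these are, is shown with its seed (bases 2 to 8) in capitals. It lies at chr11:75463772-75463793 on the plus strand (RefSeq, GRCm38.p6).
miR-22-3p: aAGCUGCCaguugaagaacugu

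The match to this seed is the heptamer GGCAGCT, searched on the transcribed strand in the longest 3′UTR that GENCODE M39 annotates for each gene. An A after it makes the 8-mer GGCAGCTA, and GCAGCTA is the shorter 7-mer-A1 form, which overlaps both. At least 1 heptamer was found in the 3′UTRs of 9 of the 10 genes, and Ncoa1 had the 7-mer-A1 form alone. Of 21540 genes with an annotated 3′UTR, 16.3% had the heptamer, 2.66% the 8-mer and 21.7% any of these forms, and longer 3′UTRs had it more often. Among 3′UTRs between 0.8 and 1.25 times as long, the heptamer was present in 45.1% for Tet1, 39.4% for Tet3, 25.6% for Tet2, 20.5% for Sirt1 and 11.5% for Hdac6. These shares ran from 22.04% for Rgs2 to 38.2% for Sp1 in the other genes with a heptamer.

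The sites of 7 genes are printed below in windows of 30 bases from GRCm39, with the match in capitals. Sirt1 and Rgs2 are shown because theirs are 8-mers, Tet2, Tet3 and Hdac4 because they hold most of the counts of the epigenetic enzymes, and Sp1 and Max because their sites fall inside counted segments.
Sirt1, chr10:63155928-63155957, minus strand: cattttccaaaacttgtGGCAGCTAacttt
Rgs2, chr1:143876784-143876813, minus strand: ccaaaaactgtcttgcgGGCAGCTAaactt
Tet2, chr3:133171079-133171108, minus strand: aaaaaccgaaagagaataGGCAGCTggttt
Tet3, chr6:83341080-83341109, minus strand: aaagctaggctcagagaaGGCAGCTtgctc
Hdac4, chr1:91857567-91857596, minus strand: attttgcacgccaaactcGGCAGCTttggg
Sp1, chr15:102344350-102344379, plus strand: tggtctgaggaagccaaaGGCAGCTgccct
Max, chr12:76985081-76985110, minus strand: accaaaacaccccaacttGGCAGCTctttc

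All 7 matches lie in 3′UTR exons and touch no coding sequence of their genes, and all except that of Tet3 are in the 3′UTR of the transcript that Ensembl marks as canonical. Tet1 had 2 heptamers, 4017 and 7053 bases after its stop codon, and that of Hdac6 began 48 bases after the stop codon. The match of Ncoa1 began 251 bases after the stop codon of its annotated transcript, and all 7 of its bases are coding sequence in other Ncoa1 transcripts. A match is a description of the letters and was not tested as a site of binding.

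The counts were made on 3′UTR segments, the last 500 bp or less of each transcript's 3′UTR, and a read pair lying on bases that segments share was counted for none of them. The segments that carry the counts and the seed matches were therefore mostly different stretches of these 10 genes. A seed match lay on a segment with counts in 3 genes, with 785 counts over the 10 libraries for Sp1, 816 for Max and 73 for Ncoa1. The match of Ncoa1 lies on bases that 2 segments share, so its 73 counts came from the 105 unshared bases beside it. The match of Hdac6 lay on segments with 0 counts, and those of the other 6 genes lay outside every segment. Of 28328 distinct segments of 500 bp in the table, 4.97% held the heptamer.

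**Figure D1:**
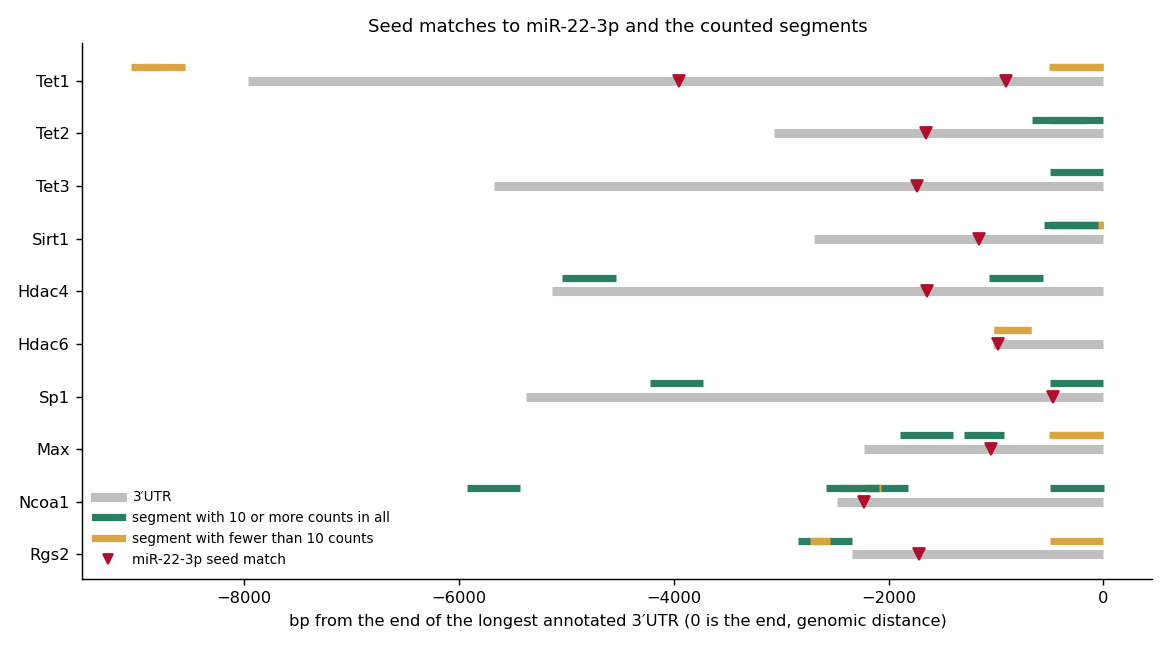
Longest annotated 3′UTR of each gene (grey bars), seed matches to miR-22-3p (red triangles) and the segments of the count table, green with 10 or more counts over the 10 libraries and yellow with fewer, against genomic distance in bp from the 3′UTR end. The triangles of Sp1, Max and Ncoa1 lie under green segments, that of Hdac6 lies under yellow ones, and the Ncoa1 segment 48380 bp upstream is outside the plotted range.

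Library totals were 2239186 to 2632560 counts in the anti-miR-22 ASO group and 1606909 to 2116720 in CTRL. Of 10 muscle fiber markers, 8 had counts, and among these Ckm, the muscle creatine kinase, and Acta1, skeletal actin, were the most abundant, while Mb and Tnnt3 were at 0. The summed level of the 10 markers was 87111 to 136070 CPM, the count relative to the scaled library size, with the ASO and 41265 to 81986 in CTRL, without overlap, and 3 of the 4 tested members were higher. Means of Myh1, Myh2, Myh4 and Tnni2 were at most 2.67 CPM in either group, so the sum rests on Acta1, Ckm, Actn3 and Mybpc2. Macrophage markers summed to 56.1 to 453 and 193 to 1185 CPM, with 1 of 4 lower and Adgre1 and Cd163 at 0, and endothelial markers to 168 to 374 and 183 to 326 CPM, with 0 of 5 called. For smooth muscle and pericytes, the sums were 460 to 1521 and 566 to 1183 CPM, with 1 of 5 higher. Satellite cell markers summed to 121 to 155 CPM with the ASO and 71.6 to 117 in CTRL, without overlap, with 1 of 4 higher and Calcr at 0. The higher member was Cdh15, at a mean of 89.6 CPM with the ASO and 38.3 in CTRL. Means of Pax7 and Vcam1 were slightly higher with the ASO and those of Chodl and Myf5 lower, so the higher sum rests on Cdh15. Adipocyte markers summed to 714 to 3619 and 843 to 13262 CPM, with 0 of 5 called. None of the tested fibro-adipogenic, Schwann cell and blood markers was called, and lymphocyte markers were too low to test. The part of these shifts in the values below was not tested.

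The question put to these genes was whether their mRNA differed between the anti-miR-22 ASO and CTRL groups. Of the 10, 7 had enough counts to be tested with edgeR's quasi-likelihood test, and with Benjamini-Hochberg adjustment over 7819 tested genes 0 were higher with the ASO and 1, Rgs2, was lower. Over all tested genes, 11.7% were higher and 17.5% lower, so 1 call in either direction among 7 genes was no larger a share than the background of 29.2%. The groups overlapped for all 7, where over all tested genes 7.98% lay wholly above CTRL with the ASO, 13.4% wholly below and 21.4% either way. The median log2 fold change was -0.06 over the 7 genes and -0.03 over all tested genes. Without adjustment, 1 of the 7 had a p under 0.05 (edgeR), beside 3223 of the 7819 tested genes. Levels are given below as CPM scaled by edgeR's TMM factors, errors are SDs with n = 5 unless said otherwise, and fold changes are ASO against CTRL.

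**Figure D2:**
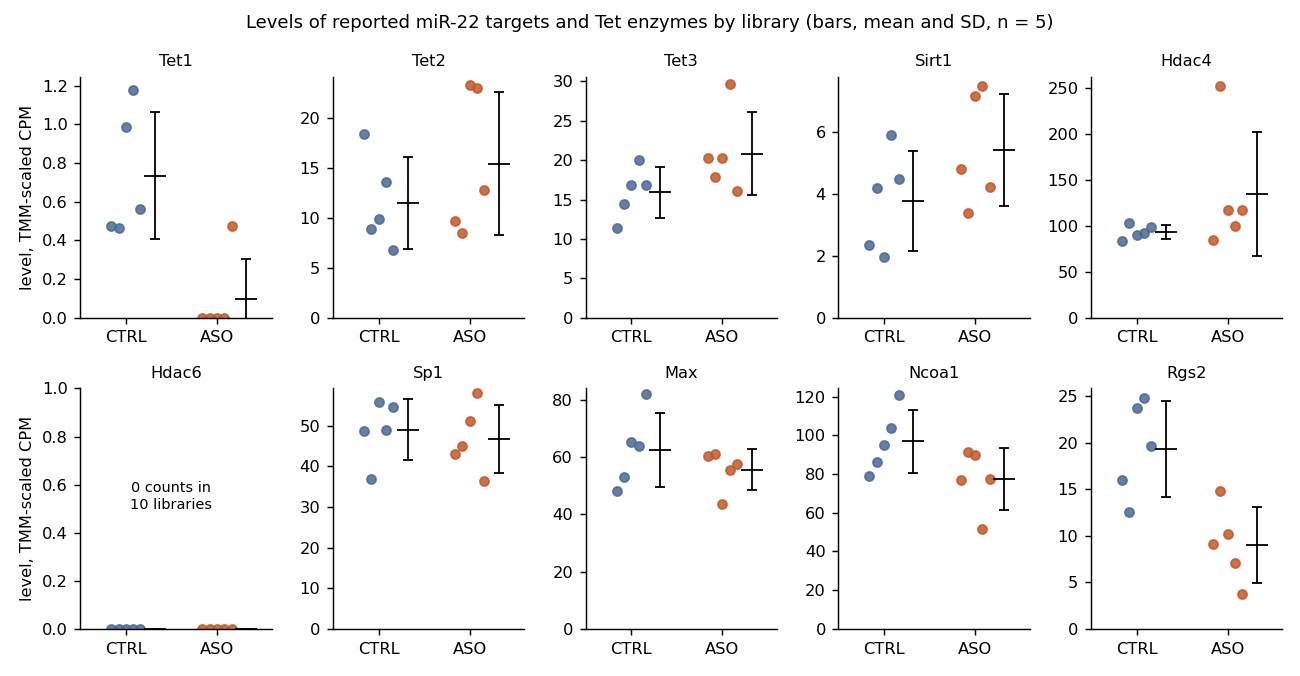
Level of each of the 10 genes in each library (TMM-scaled CPM, linear axes that start at 0), with points for the 5 CTRL and 5 anti-miR-22 ASO libraries and error bars for mean and SD. The groups overlap in every panel, Rgs2 included, Hdac6 is at 0 throughout, and 1 ASO library at 252.3 CPM stands apart for Hdac4.

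Tet1, an enzyme best known from stem cells and the germline, was close to undetected, with 8 counts in all 10 libraries. It had 0 or 1 count per ASO library and 1 or 2 per CTRL library, all under the floor of 3 counts, so no fold is given. All 8 counts lay on a segment of 335 unshared bases, in a transcript typed as subject to nonsense-mediated decay, and 397 of its 500 bp are also coding sequence. The most distal Tet1 segments share all but 7 bases each and had 0 counts.

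Tet2, the Tet enzyme best known from blood stem cells, was at 9.66, 8.49, 23.3, 23.0 and 12.7 CPM in the ASO libraries 1 to 5. In CTRL it was at 18.4, 8.86, 9.88, 13.6 and 6.74 CPM. ASO libraries 3 and 4 were above every CTRL library, and the other 3 were within the CTRL range. The mean of 15.4 ± 7.19 CPM against 11.5 ± 4.58 gave a log2 fold change of 0.42 ± 0.36 (SE), which was not significant (edgeR, adjusted p = 0.4, two-sided exact permutation p = 0.35). It was 0.25 without ASO library 4, 0.26 without ASO library 3, 0.28 without CTRL library 5 and 0.67 without CTRL library 1.

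Tet3, which oxidizes methylcytosine in many differentiated tissues, was at 20.3, 17.8, 20.3, 29.6 and 16.03 CPM with the ASO. The CTRL libraries gave 11.3, 14.5, 16.8, 20.1 and 16.8 CPM. Means were 20.8 ± 5.25 and 15.9 ± 3.24 CPM, a log2 fold change of 0.39 ± 0.22 (SE) that did not pass the test (edgeR, adjusted p = 0.2, exact permutation p = 0.095) and was 0.25 without ASO library 4. The groups overlapped, with 1 ASO library below 3 of the CTRL libraries. Tet3 was counted on a single unshared segment at chr6:83339355-83339854, at the end of its 3′UTR.

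Among the deacetylases, Sirt1, an enzyme that needs NAD, had 8 to 18 counts per ASO library and 4 to 10 per CTRL library, too few for the edgeR fit. Its mean was 5.43 ± 1.83 CPM against 3.78 ± 1.62 in CTRL, with overlapping groups (exact permutation p = 0.17). These 98 counts came from 51 bases that the Sirt1 segments do not share. Of the 500 bp of that segment, 451 overlap exons of Herc4 on the opposite strand. Nearly all of this overlap lies on the 449 bp shared with other Sirt1 segments, where read pairs were counted for none. The stated counting options set no strand, and whether any Herc4 reads reached the 51 unshared bases was not tested. Hdac6, the cytoplasmic deacetylase that acts on tubulin, was listed at 0 in all 10 libraries, and its segments leave 2 unshared bases. A level of Hdac6 could not be measured from this table.

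Hdac4, a class IIa histone deacetylase that represses Mef2-dependent genes in muscle and is induced on loss of innervation, had the most counts of the 10 genes, 2445 in all. It was at 84.5, 252.3, 118, 99.3 and 117 CPM in the ASO libraries and at 83.5, 103, 89.9, 92.04 and 98.8 CPM in CTRL. ASO library 2 was above all others, ASO libraries 3 and 5 were above every CTRL library, and the other 2 ASO libraries were within the CTRL range. The log2 fold change of 0.52 ± 0.26 (SE) was not significant (edgeR, adjusted p = 0.14, exact permutation p = 0.11), and it was 0.18 without ASO library 2 (adjusted p = 0.37).

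Sp1, which binds GC-rich promoters in most cells, was at 43.0, 45.0, 51.2, 58.0 and 36.3 CPM with the ASO and at 48.6, 36.8, 55.8, 49.0 and 54.5 CPM in CTRL. The groups covered nearly the same range, and the log2 fold change was -0.06 ± 0.16 (SE, edgeR, adjusted p = 0.79, exact permutation p = 0.64). Max, the partner that Myc needs to bind DNA, was at 60.3, 61.2, 43.6, 55.5 and 57.5 CPM with the ASO and at 48.1, 53.2, 65.2, 63.7 and 82.0 CPM in CTRL. Its log2 fold change was -0.16 ± 0.16 (SE, edgeR, adjusted p = 0.48, exact permutation p = 0.38), and -0.05 without ASO library 3 or without CTRL library 5. For these 2 factors, whose seed matches lie on counted segments, no difference larger than the spread between libraries was seen at the gene level.

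Ncoa1, also called SRC-1, was at 76.8, 91.3, 89.6, 51.8 and 77.3 CPM with the ASO and at 78.8, 86.3, 94.8, 104 and 121 CPM in CTRL. The 3 highest CTRL libraries were above every ASO library and the lowest ASO library was far below the rest. The log2 fold change was -0.32 ± 0.17 (SE, edgeR, adjusted p = 0.18, exact permutation p = 0.1). Scaled by library totals alone, where the median of all genes moved to -0.21, it was -0.51 and passed the test (edgeR, adjusted p = 0.039). Without ASO library 4 it was -0.18 (adjusted p = 0.37), and on the most distal segment alone 0.14 (adjusted p = 0.58).

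Rgs2, an inhibitor of Gq signaling, was the single gene of the 7 tested that fell with the anti-miR-22 ASO. It was at 9.17, 14.9, 10.1, 7.10 and 3.77 CPM in the ASO libraries, from 8 to 35 counts each. In CTRL it was at 16.03, 12.6, 23.7, 24.8 and 19.7 CPM, from 27 to 48 counts each. ASO library 2 was above the lowest CTRL library, so the groups overlapped by 1 library, and the other 4 ASO libraries were below all CTRL libraries.

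The mean of Rgs2 was 9.01 ± 4.08 CPM against 19.4 ± 5.13, a log2 fold change of -1.09 ± 0.32 (SE, edgeR, adjusted p = 0.024, exact permutation p = 0.016, where 0.0079 is the smallest that 5 against 5 libraries allow). The call was lost without ASO library 4 (log2 fold change -0.99, adjusted p = 0.051) and without CTRL library 4 (-0.99, adjusted p = 0.063). Whether miR-22 had a part in this fall was not tested. Nearly all counts of Rgs2 lay far from its annotated 3′ end, as described next.

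Since segments of a gene are counted apart, each was also tested on its own, over 10652 segments. Of 12 tested segments of the 10 genes, 1 was higher with the ASO and 5 were lower, against 16% higher and 24.7% lower among all segments. The direction differed between distal and upstream segments. Of the 4 most distal segments, those of Hdac4, Sp1, Ncoa1 and Tet3, 1 was higher and 0 were lower, where 25.2% of all most distal segments were higher and 4.37% lower, with a median log2 fold change of 0.30. In a fit of the most distal counted segments alone, where the median of all genes was -0.02, 0 of these 4 were called (Hdac4 0.83, Tet3 0.16, Ncoa1 0.14 and Sp1 0.12, edgeR, adjusted p = 0.069, 0.68, 0.58 and 0.63). Of the 6 segments at least 1000 bp upstream of the gene's most distal end, 5 were lower and 0 higher, where 53.7% of all such segments were lower and 5.43% higher, with a median of -0.86.

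**Figure D3:**
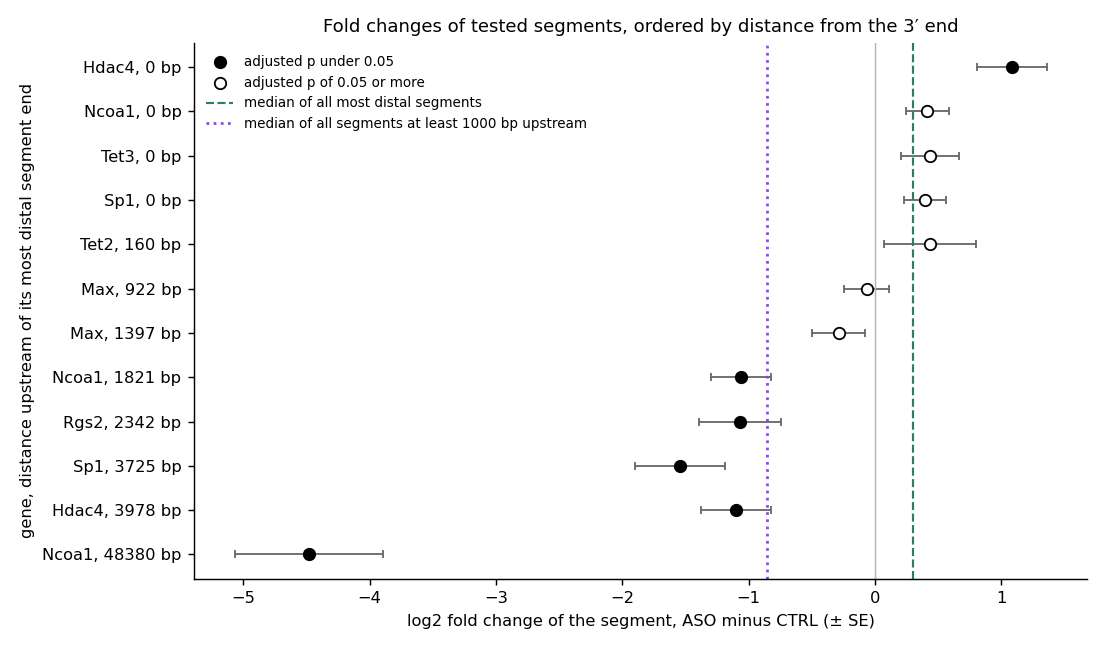
Log2 fold change (ASO against CTRL, error bars SE) of the 12 tested segments, ordered from the most distal at the top to the farthest upstream at the bottom, with filled points for an adjusted p under 0.05. The 5 segments at and within 160 bp of the most distal end lie above 0, the 5 filled points at 1821 bp and beyond lie below -1, and dashed and dotted lines give the medians of all most distal and all upstream segments.

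Hdac4 moved in both directions within its own 3′UTR. Its most distal segment (chr1:91856501-91857000) was at 71.0, 223, 104, 87.7 and 103 CPM with the ASO and at 52.3, 78.3, 55.8, 50.7 and 47.7 CPM in CTRL, a rise of 1.08 ± 0.28 (log2, SE, edgeR, adjusted p = 0.0076). Its segment 3978 bp upstream (chr1:91860479-91860978) was at 13.5, 28.9, 13.5, 11.7 and 14.6 CPM with the ASO and at 31.1, 24.2, 34.1, 41.3 and 51.1 CPM in CTRL, and fell by 1.10 ± 0.28 (log2, SE, edgeR, adjusted p = 0.0066). ASO library 2 was highest of its group on both segments, and without it the log2 fold changes were 0.78 (adjusted p = 0.008) and -1.33 (adjusted p = 8.8e-04). The call on the most distal segment was lost when most distal segments were fitted alone (0.83, adjusted p = 0.069). The seed match of Hdac4 lies between these segments.

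Sp1 also fell on its upstream segment. The segment 3725 bp upstream (chr15:102340615-102341114) was at 3.86, 7.22, 5.07, 8.35 and 2.83 CPM with the ASO and at 13.2, 7.93, 19.8, 20.7 and 21.9 CPM in CTRL, a log2 fold change of -1.54 ± 0.36 (SE, edgeR, adjusted p = 0.0042). The most distal segment (chr15:102344340-102344839), which holds the seed match, was at 39.1, 37.8, 46.1, 49.7 and 33.5 CPM against 35.4, 28.9, 36.1, 28.3 and 32.6 CPM. Its log2 fold change of 0.40 ± 0.16 (SE) did not pass the test (edgeR, adjusted p = 0.07), though it did without ASO library 2 (0.48, adjusted p = 0.045) or without ASO library 5 (0.51, adjusted p = 0.035). That value is close to the median of all most distal segments, 0.30.

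Ncoa1 had 3 tested segments. The most distal (chr12:4297362-4297861), of which 219 bp overlap 4921501I09Rik on the opposite strand, was at 59.4, 73.9, 72.7, 40.9 and 64.1 CPM with the ASO and at 50.5, 51.3, 49.4, 46.0 and 42.7 CPM in CTRL (0.41 ± 0.17 (SE), edgeR, adjusted p = 0.068), and it passed the test without ASO library 4 (0.59, adjusted p = 0.0087). The segment 1821 bp upstream was lower in every ASO library, at 7.10 to 13.2 CPM against 15.1 to 27.7 in CTRL (-1.06 ± 0.24 (SE), edgeR, adjusted p = 0.0035). The segment 48380 bp upstream (chr12:4345742-4346186) had 0 to 4 counts per ASO library against 19 to 73 in CTRL (-4.48 ± 0.59 (SE), edgeR, adjusted p = 1.2e-04). All 445 bp of it are the 3′UTR of 1 annotated short transcript and coding sequence of other Ncoa1 transcripts, which cannot be told apart.

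The 2 tested segments of Max, 922 and 1397 bp upstream, did not pass the test (-0.07 ± 0.18 and -0.29 ± 0.21, SE, edgeR, adjusted p = 0.78 and 0.3). The first holds the seed match and ranged from 27.9 to 41.6 CPM with the ASO, around a mean of 37.7 ± 5.56 against 40.5 ± 7.57 CPM in CTRL. Tet2 (0.43, adjusted p = 0.36, edgeR) and Tet3 (0.44, adjusted p = 0.15, edgeR) had 1 tested segment each, near the 3′ end.

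For Rgs2, 286 of 289 counts lay on a segment 2342 bp upstream (chr1:143877418-143877917), of which 301 bp are coding sequence, in a transcript typed as subject to nonsense-mediated decay. On its own this segment fell by 1.07 ± 0.32 (log2, SE, edgeR, adjusted p = 0.018). The most distal Rgs2 segment had 0 or 1 count per library, under the floor of 3 counts, so no fold could be given where the annotated 3′UTR ends. The call on Rgs2 rests on the kind of segment that was lower in 53.7% of cases, and the part of that shift in it was not tested.

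**Figure D4:**
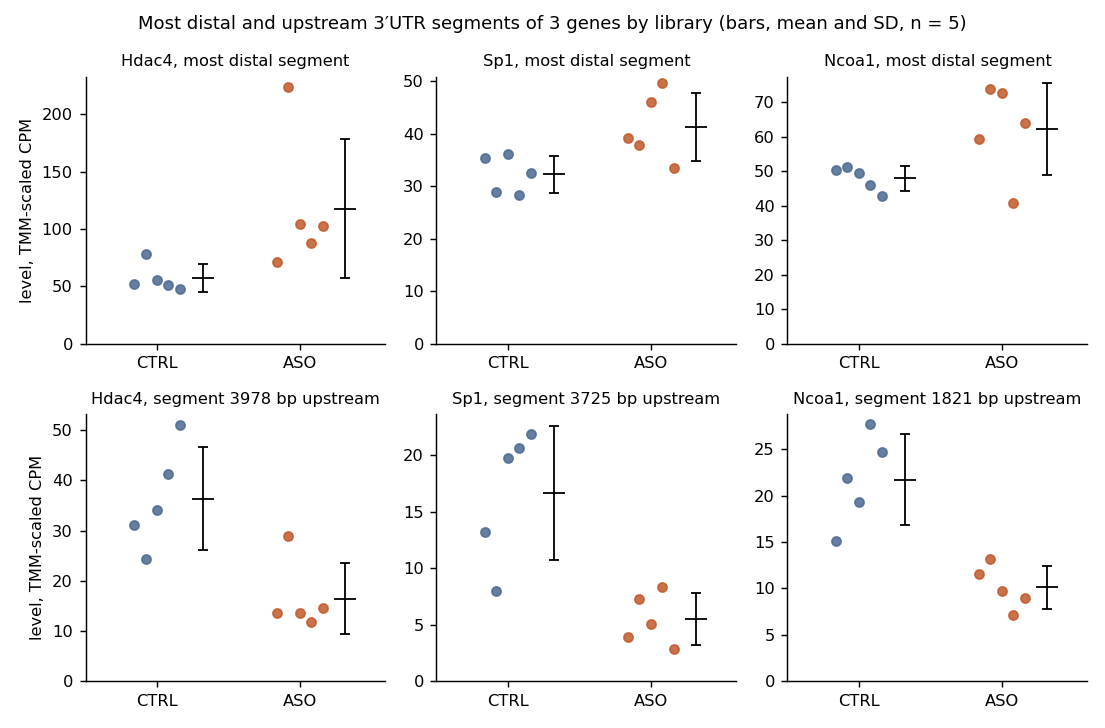
Level of the most distal segment (top row) and of an upstream segment (bottom row) of Hdac4, Sp1 and Ncoa1 in each library (TMM-scaled CPM, axes start at 0), with error bars for mean and SD. ASO libraries tend to lie above CTRL in the top row, with overlap, and lie below it in the bottom row, without overlap for Ncoa1.

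The share of counts on the most distal segment was set against those at least 1000 bp upstream in the 3 genes with enough counts on both sides. For Hdac4, 84.0% to 88.6% of the counts were distal in the ASO libraries and 48.3% to 76.4% in CTRL. For Sp1 the shares were 84.0% to 92.2% against 57.8% to 78.5%, and for Ncoa1 81.0% to 85% against 38.6% to 67.7%. The ratio of distal to upstream counts rose by 2.12, 1.93 and 2.05 on the log2 scale for Hdac4, Sp1 and Ncoa1, with no overlap between the groups (exact permutation p = 0.0079 for each, the smallest possible). Without overlap and in this direction were also 49.3% of the 1592 genes compared, against 1.51% in the other, and the median shift was 1.28. The shifts of the 3 genes exceeded those of 74.3%, 69.1% and 72.4% of these genes. The median log2 ratio over genes was 1.18 to 1.68 in the ASO libraries and -0.45 to 0.49 in CTRL, so the libraries of the groups differed in where along the transcript reads lay, and this cannot be told apart from the treatment.

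Levels were compared between genes on most distal segments of 500 unshared bp. In CTRL the order was Hdac4 at 57.0 ± 12.3 CPM, Ncoa1 at 48.0 ± 3.58, Sp1 at 32.2 ± 3.57 and Tet3 at 15.9 ± 3.24, and Rgs2, with 0 or 1 count per library there, was not ranked. Hdac4 exceeded Ncoa1 in 5 of 5 CTRL and 5 of 5 ASO libraries, though the ranges of both overlapped. Ncoa1 and Sp1 were apart in CTRL and overlapped with the ASO, and Sp1 and Tet3 were apart in both groups.

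The values of all genes with a seed match are given beside those without. The 1690 tested genes with a heptamer had a median log2 fold change of -0.01, with 12.6% higher and 18.5% lower, and the 6091 without had -0.04, with 11.4% higher and 17.1% lower. For the 270 genes with an 8-mer, the median was 0.02, with 17.4% higher and 16.3% lower. Their median 3′UTR lengths, 2924, 1793 and 3380 bases, differed too, and no test was made. The 2 members with an 8-mer were Rgs2, which fell, and Sirt1, which had too few counts for the edgeR fit.

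Of 22 other reported targets of miR-22, 12 were tested, and 2 were higher and 3 lower, for 41.7% called, beside 29.2% of all tested genes, and a median of -0.08 on the log2 scale. Purb, a single-stranded DNA-binding repressor of muscle genes, rose from 67.3 ± 13.2 to 211 ± 27.0 CPM (log2 fold change 1.65, edgeR, adjusted p = 1.1e-04). Cav3, the caveolin of muscle fiber membranes, rose from 179 ± 38.9 to 418 ± 48.2 CPM (1.22, adjusted p = 4.4e-04). All counts of Purb and Cav3 lay on most distal segments, of which 25.2% were higher among all segments of that kind. When most distal segments were fitted alone, Purb was at 1.42 (adjusted p = 2.7e-04) and Cav3 at 1.00 (adjusted p = 0.0013). The part of the distal shift in these rises was not tested. Ppara, a nuclear receptor of fatty acid oxidation, fell from 23.2 ± 15.1 to 2.10 ± 1.603 CPM (-3.41, adjusted p = 0.0018), and Mycbp, a Myc-binding protein, fell from 35.3 ± 5.42 to 21.0 ± 3.88 CPM (-0.75, adjusted p = 0.0084). The most distal segment of Ppara held 47.9% of its counts, and Ppara was not tested when most distal segments were fitted alone. Esr1, the estrogen receptor alpha, fell by 0.44 on the log2 scale (adjusted p = 0.027), a call that upper quartile scaling ended (adjusted p = 0.066) and that its most distal segment alone did not show (0.03, adjusted p = 0.92). It was also lost on leaving out any 1 library other than ASO 2, CTRL 1 or CTRL 3 (adjusted p up to 0.067).

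Among the partners of the Tet enzymes, 9 of 20 genes of cytosine methylation and its removal were tested, 0 were higher and 1 was lower (11.1% called beside 29.2%), the repair ligase Lig3 (-0.39, edgeR, adjusted p = 0.043, and 0.1 under upper quartile scaling), a call also lost on leaving out any 1 library other than ASO 2 or CTRL 3 (up to 0.11). Of 28 other histone deacetylases and their corepressors, 25 were tested, 5 were higher and 4 lower, or 36% called beside 29.2% of all tested genes. Hdac5, of the same class as Hdac4, rose by 0.79 on the log2 scale (adjusted p = 0.0027), Sin3b, a corepressor scaffold, by 0.77 (adjusted p = 0.003), Gps2, a subunit of the NCoR complex, by 1.08 (adjusted p = 0.0031), and Chd4, the ATPase of the NuRD complex, by 1.15 (adjusted p = 0.015). Those that fell were Hdac11, the class IV deacetylase (-1.05, adjusted p = 0.0012), the CoREST scaffold Rcor1 (-0.85, adjusted p = 0.0036), the kinase Camk2d, which acts on class IIa deacetylases (-0.95, adjusted p = 0.0038), and the histone chaperone Rbbp7 (-0.48, adjusted p = 0.035, and 0.074 under upper quartile scaling). On their most distal segments alone, Hdac11 (-0.53, adjusted p = 0.12), Rcor1 (-0.21, adjusted p = 0.53) and Chd4 (0.94, adjusted p = 0.052) were not called, and 66.4% of the counts of Camk2d lay on a segment 1999 bp upstream. The call on Rbbp7 was lost on leaving out any 1 library other than ASO 2 or CTRL 3 (adjusted p up to 0.084).

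Of 16 genes of sirtuins and NAD salvage, 11 were tested, 0 were higher and 3 lower. These were Nampt, the rate-limiting enzyme of NAD salvage (-0.90, edgeR, adjusted p = 0.0029), the mitochondrial desuccinylase Sirt5 (-1.07, adjusted p = 0.0045) and the riboside kinase Nmrk1 (-0.83, adjusted p = 0.019), whose call was lost without ASO library 1 (0.051), ASO library 3 (0.052) or CTRL library 4 (0.055). The 27.3% called stood beside 29.2% of all tested genes. Nampt on its most distal segment alone was at -0.28 (adjusted p = 0.39), and 91.6% of the counts of Sirt5 lay on a segment 14650 bp upstream.

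In the Sp and Max network, 11 of 16 genes were tested, 0 were higher and 2 lower (18.2% called beside 29.2%), Mycbp as above and Mxi1, a competitor of Myc for Max (-0.67, edgeR, adjusted p = 0.008). Of 14 coactivators and partners of Ncoa1, 11 were tested, 1 was higher and 3 lower, or 36.4% called beside 29.2% of all tested genes. The acetyltransferase Ep300 rose by 0.70 on the log2 scale (adjusted p = 0.035, 0.078 with library totals alone, 0.13 when most distal segments were fitted alone, and up to 0.088 on leaving out any 1 library other than ASO 1, ASO 4 or CTRL 2), while Ncoa2 (-2.13, adjusted p = 6.1e-04), Ncoa4 (-2.19, adjusted p = 0.0019) and the Mediator subunit Med1 (-1.48, adjusted p = 0.0026) fell. Most counts of Mxi1, Ncoa2, Ncoa4 and Med1 lay on segments 2656, 3370, 6420 and 2094 bp upstream of the most distal end.

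Of 25 RGS proteins and genes of G protein signaling, 12 were tested, 1 was higher and 2 lower, or 25% called beside 29.2% of all tested genes. The alpha subunit Gna11 rose by 0.47 on the log2 scale (edgeR, adjusted p = 0.022, 0.13 with library totals alone, 0.23 when most distal segments were fitted alone and 0.054 without CTRL library 5), and Gnai2, an inhibitory alpha subunit (-1.93, adjusted p = 0.0015), and the phospholipase Plcb4 (-1.19, adjusted p = 0.02) fell, with all counts of Gnai2 6009 bp and of Plcb4 1324 bp upstream. Plcb4 was not called without CTRL library 4 (0.056) or CTRL library 5 (0.052). The genes most like Rgs2 over the 10 libraries, by root mean square difference of standardized log2(CPM + 1), were Ddah1 at 0.28 SD, Gnb5 at 0.29 SD and Ints2 at 0.30 SD. Libraries of both groups entered this measure, so the direction of these genes largely followed from the choice and is no separate result. All 3 were lower with the ASO (-1.28, -0.82 and -1.06, edgeR, adjusted p = 0.0023, 0.0036 and 0.034). Ints2 was not called without any 1 of ASO libraries 1, 4 and 5 and CTRL libraries 3, 4 and 5 (up to 0.073).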

How the data were processed

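The members and gene lists were chosen with earlier results of these data known. Polyadenylated RNA was made into stranded mRNA libraries. The authors used fastp for trimming, STAR for alignment to GRCm39 and featureCounts with Gencode M25 for read pairs, kept the final 500 bp of each 3′UTR, and deposited raw counts. Segments were named with GENCODE M39, where 52361 of 52423 identifiers matched and the 62 others held 0.0197% of the counts, and summed per gene. The 4 other per-sample columns were not used. Genes were tested with edgeR 4.0.16 (TMM, filterByExpr, quasi-likelihood, Benjamini-Hochberg, threshold 0.05), on the 5 against 5 libraries. Single values were tested with two-sided exact permutation tests over 252 labellings on log2(CPM + 1), 9 tests over the members with no adjustment. The labels do not tie each library to an animal, so p-values measure the spread between these libraries. Distal ratios took 0.5 added counts, at least 50 counts on each side, 200 unshared bp and 1000 bp between segments. Named are all members, up to 8 called genes per list by adjusted p and the 3 genes most like a called member. The fits were tested on simulated counts. Intervals of counts were not formed, and the floor of 3 counts covers counting error only. Alternatives were DESeq2 1.42.0, limma-voom (limma 3.58.1), other scalings and filters, the replicate block and leaving out each library. Coordinates are 1-based.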

Additional observations from a re-analysis of the deposited data

Results flagged for a closer look

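In each group of 5 libraries, a value was singled out when its gap to the nearest other was over 0.71 of the group's range (Dixon's 95% value). Chance alone gives this in about 1 in 20 groups of independent normal values, and 5 of 38 groups met it. A gene and its segments share counts, so these groups are not independent and the 2 rates cannot be compared directly. The level of Hdac4 in ASO library 2 was 252.3 CPM, with the next at 118. On the most distal Hdac4 segment the same library was at 223 CPM, with the next at 104, and on the segment 3978 bp upstream it was at 28.9 CPM, with the next at 14.6. CTRL library 2 was at 78.3 CPM on the most distal Hdac4 segment, with the next at 55.8. The Max segment 922 bp upstream was at 27.9 CPM in ASO library 3, with the nearest other at 39.1.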

How the results depend on the processing

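No member was higher in any of the 21 alternatives run on genes. The 1 lower member became 2 with library totals alone and 0 with at least 10 counts in every library or the most distal segment alone, where Rgs2 was not tested, and with the replicate block, and it ranged from 0 to 1 when single libraries were left out. Rgs2 stayed past the threshold in 16 of 19 alternatives that could test it (adjusted p 0.0097 to 0.063). Replicate numbers did not pair the samples (correlations of same-numbered deviations -0.43 to 0.16, 0 of 5 best matches), and with them as a block Rgs2 was at -1.14 (adjusted p = 0.052). The member median was -0.24 with library totals (7 members tested), 0.14 with at least 10 counts (6 members) and 0.15 on distal segments (4 members). It was -0.14 to 0.026 without an ASO library (7 members) and 0.097 to 0.21 without a CTRL library (8 members). These medians therefore do not all cover the same members. Sp1 changed sign with upper quartile scaling (0.024), without ASO library 5 (0.026) and on its distal segment (0.12), as did Ncoa1 there (0.14) and the Max segment 922 bp upstream with no filter (0.028), without ASO library 3 (0.10) and without CTRL library 5 (0.02), none of them called. Sp1 ranged from -0.15 to 0.026 and that Max segment from -0.14 to 0.099 without single libraries. Member segments called higher were 1 to 2 and lower 5 in each case without single libraries, a choice made after seeing the data, as was a ratio over all upstream segments. The cause of these moves was not tested. The calls over all genes were 388 higher and 602 lower on distal segments alone, against 916 and 1365, and 528 were higher with library totals. The genes tested differed on distal segments alone (4 members against 7 in the main fit), so those calls are not shares of the same genes. Tet1, Sirt1 and Hdac6 had 349, 53 and 2 unshared bases, and Rgs2 had 8 to 48 counts per library.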

Other observations

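Several other reported targets of miR-22 could hardly be counted on these segments. Arpc5, a subunit of the Arp2/3 complex, had 0 bases that no other segment shares, and 0 counts. Esrra had 1 such base with 15 counts, Nlrp3 had 2 with 0 counts and Cd151 had 10 with 55 counts. Of the targets with enough counts, Ppargc1a, the coactivator of mitochondrial biogenesis, had a log2 fold change of -0.04 (edgeR, adjusted p = 0.92), Tgfbr1 of -0.13 (adjusted p = 0.67) and Fgfr1 of 0.29 (adjusted p = 0.19). Larger changes, also not called, were those of Cdkn1a (-1.18, adjusted p = 0.12) and Tiam1 (-1.07, adjusted p = 0.059). In the other direction were Ddit4 (0.68, adjusted p = 0.19) and Erbb3 (0.67, adjusted p = 0.21).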
